A study of Mus musculus with 12 samples.

Results

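The 10 genes described here encode proteins of the granules, cytoplasm and surface of neutrophils: S100a8, S100a9, Ngp, Ltf, Camp, Lcn2, Retnlg, Cxcr2, Trem1 and Ifitm6. They were chosen by name among the 22180 genes that the platform annotation gives a single symbol, and each had 1 row on the array. The choice used measured values, since Ifitm6 has one of the largest differences between fatty and healthy liver. Differences between the livers are therefore given for these genes as a description with no test, and tests are kept to the treatment.

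RNA was measured on 12 arrays of mouse colorectal cancer that had been injected into the liver and had grown there. The design text of the series gives 3 mice for each of the 4 groups, which were fatty liver with anti-VEGF, fatty liver with vehicle, healthy liver with anti-VEGF and healthy liver with vehicle. Anti-VEGF is an antiangiogenic treatment directed at vascular endothelial growth factor. The sources used here do not give the cancer cell line, the strain, sex and age of the mice, how the liver was made fatty, or the dose and length of treatment. The samples were whole tumour tissue, in which fewer cells of a type and less RNA per cell cannot be told apart.

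Neutrophils are short-lived white blood cells that mature in the bone marrow and enter tissues from the blood. While they mature they fill several sets of granules in turn, so the messages of granule proteins such as Ngp, Ltf and Camp are abundant in marrow precursors and low in mature cells. Mature cells carry abundant S100a8 and S100a9 message and surface receptors such as Cxcr2, which follows chemokines out of the blood. Several of these genes are not confined to neutrophils, since monocytes also express S100a8, S100a9, Trem1 and Ifitm6 and many epithelial cells and hepatocytes can produce Lcn2.

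The values are log2 expression values as the authors deposited them. A gene was called measured where 3 or more arrays exceeded the median of all values, 4.93, and 13286 genes met this and were tested. Of the 10 genes, 7 were measured: S100a8, S100a9, Lcn2, Retnlg, Cxcr2, Trem1 and Ifitm6. Ngp and Ltf passed the limit on 1 array and Camp on 0, so these 3 were not tested. Because a gene that is high in fatty liver alone could pass, the 7 are not a sample of the 10. The array holds no detection calls in the values used, and the number of arrays limits the precision.

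Some arrays stood apart or were nearly alike. Over the tested genes, the SD of the difference was 0.163 between vehicle arrays 1 and 3 of fatty liver, 0.163 between those of healthy liver, and 0.148 to 0.156 among the 3 anti-VEGF arrays of healthy liver. All other pairs within a group lay between 0.391 and 0.636. Xist, a transcript of the inactive X chromosome of females, was at 8.10 or higher on vehicle arrays 1 and 3 of both livers and at 4.32 or lower on the other 8 arrays. Whether arrays this alike stand for separate mice was not tested. Anti-VEGF array 3 of fatty liver and vehicle array 2 of healthy liver stood apart within their groups. Vehicle array 2 of fatty liver did so too, with an SD of the difference of 0.405 and 0.391 to vehicle arrays 1 and 3. Values without these arrays are given beside the results they moved most. Of the markers of the labelled tissue, the epithelial genes Epcam, Krt19, Krt20 and Vil1 were below the limit on all 12 arrays, while the keratins Krt8 and Krt18 were above it on all. Of the 9 hepatocyte genes on the array, 7, including Alb, were below the limit on all arrays.

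Markers fixed for neutrophils gave a mixed check of the name. Csf3r, the receptor for granulocyte colony-stimulating factor, and Mmp8, neutrophil collagenase, were above the limit on all 12 arrays. Ly6g, the surface antigen most used to define mouse neutrophils, was above the limit on 1 array, at 7.39 on anti-VEGF array 1 of fatty liver. On anti-VEGF arrays 2 and 3 of fatty liver Ly6g was at 3.63 and 3.81, and on the vehicle arrays of fatty liver at 4.67, 4.21 and 4.37. In healthy liver it lay between 3.63 and 3.79 under anti-VEGF and between 3.52 and 3.99 under vehicle. Of 8 precursor markers, which belong to immature cells of the marrow, Elane, Mpo, Fcnb and Ms4a3 were below the limit on all 12 arrays. The other 4, Prtn3, Ctsg, Cebpe and Gfi1, were measured. Their mean lay at 5.28 to 5.91 under anti-VEGF and 5.64 to 6.35 under vehicle in fatty liver. In healthy liver it lay at 5.41 to 5.47 under anti-VEGF and 5.12 to 6.17 under vehicle.

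S100a8 and S100a9 encode the subunits of calprotectin, a calcium- and zinc-binding protein that makes up much of the neutrophil cytoplasm. S100a8 was at 9.75, 6.06 and 3.15 on anti-VEGF arrays 1 to 3 of fatty liver, against 6.47, 8.18 and 6.45 on the vehicle arrays of fatty liver. In healthy liver it was at 3.56, 3.71 and 3.88 under anti-VEGF, against 4.0, 4.42 and 3.97 under vehicle. All 6 healthy liver arrays were below the limit, and so was anti-VEGF array 3 of fatty liver, which had the lowest value of the 12. S100a9 was at 7.83, 5.32 and 4.58 under anti-VEGF and at 5.46, 5.89 and 5.56 under vehicle in fatty liver. In healthy liver S100a9 was at 3.79, 4.07 and 4.04 under anti-VEGF and at 4.07, 4.03 and 4.10 under vehicle, below the limit throughout. Every fatty liver array was above every healthy liver array in S100a9, although array 3 of the anti-VEGF group did not reach the limit.

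Ngp, neutrophilic granule protein, Ltf, the iron-binding lactoferrin, and Camp, the precursor of the antimicrobial peptide cathelicidin, belong to the secondary granules. Ngp was at 6.19, 2.92 and 2.93 on the anti-VEGF arrays of fatty liver, against 3.53, 3.55 and 3.20 on its vehicle arrays. Its values in healthy liver were 3.39, 3.26 and 3.58 under anti-VEGF and 3.44, 3.30 and 3.03 under vehicle. The first anti-VEGF array of fatty liver alone stood clear of the others. Ltf was at 5.62, 4.08 and 3.92 under anti-VEGF and at 4.24, 4.42 and 4.32 under vehicle in fatty liver, and between 3.84 and 4.0 on the 6 healthy liver arrays. Camp was at 4.07, 2.99 and 3.38 under anti-VEGF and at 3.05, 3.53 and 3.41 under vehicle in fatty liver, and between 3.17 and 3.53 on the healthy liver arrays. The highest value of each of the 3 genes was on that same array, and no other array was above the limit in any of them.

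Lcn2, lipocalin 2, binds bacterial siderophores and is stored in granules, and Retnlg, resistin-like gamma, is a secreted protein abundant in mouse marrow and neutrophils. Lcn2 was at 9.83, 6.91 and 5.32 on the anti-VEGF arrays of fatty liver, against 7.65, 8.17 and 7.64 on the vehicle arrays. In healthy liver Lcn2 was at 7.32, 7.33 and 7.44 under anti-VEGF, against 7.92, 8.33 and 8.03 under vehicle. Lcn2 was above the limit on all 12 arrays, and its healthy liver values lay within the range of its fatty liver values. Retnlg was at 9.71, 4.84 and 3.45 under anti-VEGF, against 5.37, 6.31 and 5.79 under vehicle, in fatty liver. In healthy liver Retnlg lay between 2.98 and 3.20 under anti-VEGF and between 2.98 and 3.16 under vehicle. All 6 fatty liver arrays were above all healthy liver arrays in Retnlg, but arrays 2 and 3 of the anti-VEGF group were below the limit.

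Cxcr2 is the receptor for the chemokines Cxcl1 to Cxcl3, Cxcl5 and Ppbp, and Trem1 is a surface receptor that amplifies inflammatory signalling through the adaptor Tyrobp. Cxcr2 was at 10.01, 7.91 and 5.46 on the anti-VEGF arrays of fatty liver, against 8.15, 9.77 and 8.08 on the vehicle arrays. In healthy liver Cxcr2 was at 5.82, 5.40 and 5.61 under anti-VEGF, against 5.25, 6.16 and 5.33 under vehicle. Anti-VEGF array 3 of fatty liver fell inside the healthy liver range and the other 5 fatty liver arrays lay above it. Trem1 was at 10.42, 9.27 and 5.68 under anti-VEGF, against 9.06, 10.54 and 8.97 under vehicle, in fatty liver. In healthy liver Trem1 was at 4.96, 5.21 and 5.25 under anti-VEGF, against 5.04, 6.87 and 5.46 under vehicle. Vehicle array 2 of healthy liver was the highest healthy liver array in Cxcr2 and in Trem1, and in Trem1 it was above anti-VEGF array 3 of fatty liver.

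Ifitm6 is a mouse member of the interferon-induced transmembrane family, small membrane proteins of which several restrict the entry of viruses. Ifitm6 was at 10.30, 8.99 and 5.65 on the anti-VEGF arrays of fatty liver, against 9.41, 10.21 and 9.28 on the vehicle arrays. In healthy liver it was at 4.95, 5.17 and 5.48 under anti-VEGF, against 5.39, 6.36 and 5.14 under vehicle. The pattern was that of Trem1, with array 3 of the fatty liver anti-VEGF group inside the healthy liver range and vehicle array 2 of healthy liver above the other healthy liver arrays. Ifitm6 averaged 8.31 ± 2.40 under anti-VEGF and 9.63 ± 0.50 under vehicle in fatty liver, and 5.20 ± 0.27 under anti-VEGF and 5.63 ± 0.64 under vehicle in healthy liver (SD, n = 3 each). By mean, fatty liver with vehicle was highest, then fatty liver with anti-VEGF, healthy liver with vehicle and healthy liver with anti-VEGF. Neighbours in that order overlapped within each liver, and so did fatty liver with anti-VEGF and healthy liver with vehicle, through the third anti-VEGF array.

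**Figure D1:**
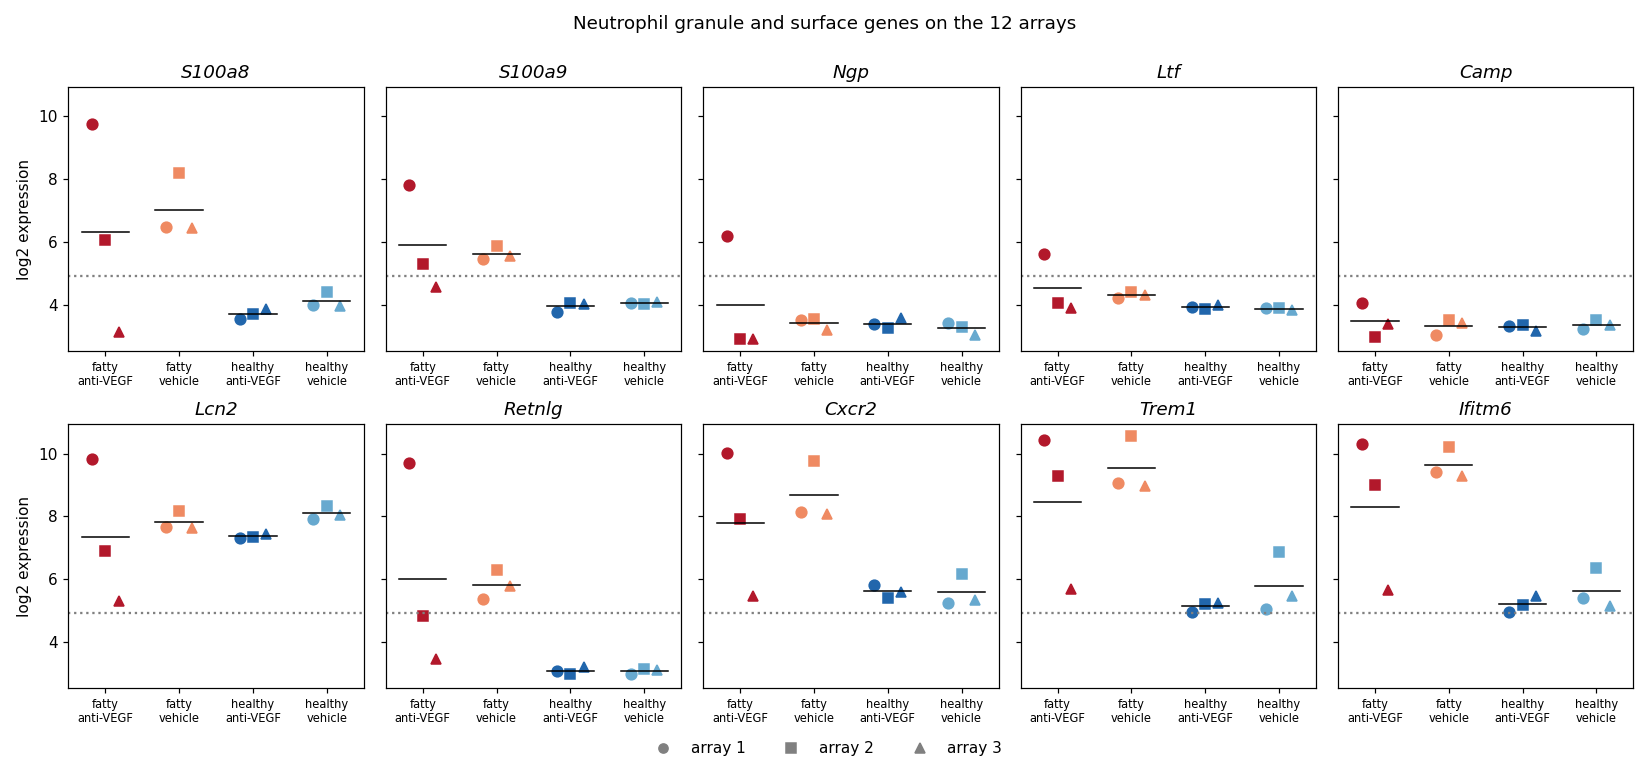
Log2 expression of the 10 genes on the 12 arrays, 1 panel per gene, with the groups on the horizontal axis, symbols for arrays 1 to 3, a solid line at each group mean and a dotted line at the limit of 4.93. In fatty liver with anti-VEGF the 3 arrays are spread widely, from 3.15 to 9.75 for S100a8. The anti-VEGF arrays of healthy liver lie close together, and its vehicle arrays run from 5.04 to 6.87 for Trem1.

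Between the livers, 6 of the 7 measured genes had higher means in fatty liver and Lcn2 did not. These differences contributed to the choice of the genes and are described only. Under vehicle, the log2 difference of fatty against healthy liver was 4.0 for Ifitm6, a 16.0-fold difference and rank 7 from the highest of the 13286 tested genes. It was 3.74 for Trem1, rank 14, 3.09 for Cxcr2, rank 69, and 1.56 for S100a9, rank 771. For S100a8 and Retnlg the differences were 2.91 and 2.74. Because every healthy liver array was below the limit in S100a8, Retnlg and S100a9, their levels under vehicle were at least 4.30-fold, at least 1.86-fold and at least 1.63-fold higher in fatty liver, counted from the limit. Lcn2 differed by -0.28. All 3 vehicle arrays of fatty liver lay above all 3 of healthy liver in 6 of the 7 genes, as 23.6% of all tested genes did, and below them in 0 of 7, as 37.2% did. In limma 45.8% of all tested genes passed between the livers under anti-VEGF and 49.6% under vehicle.

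Under anti-VEGF the same description gave log2 differences of 3.32 for Trem1, 3.11 for Ifitm6, 2.91 for Retnlg, 2.60 for S100a8, 2.18 for Cxcr2, 1.94 for S100a9 and -0.01 for Lcn2. Counted from the limit, S100a8 and S100a9, with 2 of 3 fatty liver arrays above it, were at least 2.62-fold and at least 1.97-fold higher. Retnlg, with 1 array above it, was at least 2.10-fold higher. These bounds rested on anti-VEGF array 1 of fatty liver: without it the means of S100a8 and Retnlg, 4.6 and 4.15, were below the limit and gave no fold, and that of S100a9 gave at least 1.01-fold. Without array 3 the bounds were at least 7.86-fold for S100a8, at least 5.07-fold for Retnlg and at least 3.12-fold for S100a9. The groups did not overlap in 4 of the 7 genes, S100a9, Retnlg, Trem1 and Ifitm6, against 21.9% of all tested genes that were higher without overlap and 36.6% that were lower, and in 6 of 7 without anti-VEGF array 3 of fatty liver. The median log2 difference of the 7 genes was 2.60 under anti-VEGF and 2.91 under vehicle, or 1.39 and 2.10 with the bounds in place of the fitted values. The median over all tested genes was -0.13 under anti-VEGF and -0.12 under vehicle. Leaving out anti-VEGF array 1 of fatty liver moved the median under anti-VEGF to 1.06, and leaving out array 3 moved it to 4.18. Without vehicle arrays 1 and 3 of both livers, those high in Xist, the median under vehicle was 3.64, and without vehicle array 2 of healthy liver it was 3.05. Without vehicle array 2 of fatty liver the median under vehicle was 2.49.

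Markers of other cells differed between the livers beside these genes, and their part in the differences was not tested. Under anti-VEGF, 8 of 10 monocyte genes (median log2 difference 2.81), 9 of 10 macrophage genes (median 1.97) and 5 of 6 T and NK cell genes (median 2.43) rose in fatty against healthy liver in limma. Under vehicle, 8 of 10 monocyte genes (median 2.64), 9 of 10 macrophage genes (median 1.55) and 6 of 6 T and NK cell genes (median 3.44) rose. With bounds for genes below the limit in healthy liver the T and NK cell medians were 2.05 under anti-VEGF and 2.89 under vehicle, and without anti-VEGF array 1 of fatty liver 3 of the 6 rose under anti-VEGF. No gene of these lists fell under either treatment, where 18.2% of all tested genes rose under anti-VEGF and 19.2% under vehicle. Of the 4 tumour epithelium genes measured, Cdh1 rose and the keratins Krt8 and Krt18 fell in limma under both treatments. Among all tested genes 27.6% fell under anti-VEGF and 30.4% under vehicle. Krt8 and Krt18 fell by 0.87 and 1.28 under anti-VEGF and by 0.84 and 0.88 under vehicle. Cdh1 did not pass under anti-VEGF without anti-VEGF array 1 of fatty liver. With the nearly alike arrays averaged 0 of the 4 passed. With the nearly alike arrays averaged, the genes that rose were 2 of 10 monocyte, 7 of 10 macrophage and 0 of 6 T and NK cell genes under anti-VEGF, and 1, 5 and 0 under vehicle.

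Treatment was tested with limma across all 13286 genes. In fatty liver none of the 7 measured genes changed with anti-VEGF at an adjusted p of 0.05: 0 of 7 passed, and 0 of 7 had an unadjusted p under 0.05. In the same comparison 0.00753% of the tested genes passed, which is 1 gene, Klk1b11, named after its value was seen, and 778 genes had an unadjusted p under 0.05. The anti-VEGF and vehicle arrays overlapped in all 7 genes, while 3.07% of all tested genes were higher and 4.99% lower without overlap. Ifitm6 differed by -1.32 on the log2 scale (SE 0.92, 95% interval -3.35 to 0.71, limma adjusted p = 0.799). That test shares its fatty liver arrays with the values for which Ifitm6 was chosen. Trem1 averaged 8.46 ± 2.47 under anti-VEGF and 9.53 ± 0.88 under vehicle, a difference of -1.07 (SE 1.00, 95% interval -3.30 to 1.15, limma adjusted p = 0.827). For Cxcr2 the difference was -0.88 (SE 0.91, limma adjusted p = 0.841) and for S100a8 -0.72 (SE 1.24, limma adjusted p = 0.916). For Lcn2, S100a9 and Retnlg it was -0.47, 0.27 and 0.18, with standard errors of 0.83, 0.62 and 1.19. The intervals of all 7 genes held 0, and the widest, that of S100a8, ran from -3.47 to 2.04.

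These differences rested on which arrays of fatty liver entered. Without array 1 the difference between anti-VEGF and vehicle was -2.32 for Ifitm6, -2.05 for Trem1, -1.98 for Cxcr2, -2.43 for S100a8, -1.70 for Lcn2, -1.68 for Retnlg and -0.69 for S100a9. Without array 3 the sign was positive for all 7, at 0.01 for Ifitm6, 0.32 for Trem1, 0.29 for Cxcr2, 0.87 for S100a8, 0.55 for Lcn2, 1.45 for Retnlg and 0.94 for S100a9. No gene of the 7 passed in either fit. Without vehicle arrays 1 and 3, 1 vehicle array was left in fatty liver. The difference was then -1.89 for Ifitm6, -2.09 for Trem1, -1.97 for Cxcr2 and -1.86 for S100a8. In both livers vehicle arrays 1 and 3 were high in Xist and no anti-VEGF array was. Treatment and this split cannot be fully told apart.

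In healthy liver 0 of the 7 genes passed and 0 had an unadjusted p under 0.05 in limma, where 0% of the tested genes passed and 1118 had an unadjusted p under 0.05. Lcn2 averaged 7.36 ± 0.06 under anti-VEGF and 8.09 ± 0.21 under vehicle (SD, n = 3 each), a log2 difference of -0.73 (SE 0.83, 95% interval -2.58 to 1.11, limma adjusted p = 0.895). The 3 anti-VEGF arrays lay below the 3 vehicle arrays in Lcn2 and in S100a8, 2 of the 7 genes, against 11.7% of all tested genes, and above them in 0 of 7, against 13.1%. S100a8 was below the limit in both groups, so no fold is given for it. Trem1 differed by -0.65 (SE 1.00, limma adjusted p = 0.932) and Ifitm6 by -0.43 (SE 0.92, limma adjusted p = 0.957), and in both genes the groups overlapped. Without vehicle array 2 of healthy liver these were -0.11 and -0.06. Cxcr2 differed by 0.03 and S100a9 and Retnlg, below the limit in both groups, by -0.10 and 0.00.

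The treatment difference did not pass a test of dependence on the liver in any of the 7 genes. The interaction in limma called 0 of 7, with 0 of 7 at an unadjusted p under 0.05 and adjusted p-values between 0.980 and 0.999, and 0% of all tested genes, of which 677 had an unadjusted p under 0.05. The fatty liver difference minus the healthy liver difference was -0.91 for Cxcr2 (SE 1.28) and -0.89 for Ifitm6 (SE 1.29), the lowest of the 7, and 0.38 for S100a9 (SE 0.88), the highest. Over the 7 genes the median difference was -0.72 for treatment in fatty liver, -0.41 for treatment in healthy liver and -0.30 for the interaction, beside 0.01, 0.01 and 0.02 over all tested genes. Each of these medians was the value of S100a8. S100a8, S100a9 and Retnlg were below the limit on all healthy liver arrays. Their healthy liver and interaction differences therefore rested on values under the limit.

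**Figure D2:**
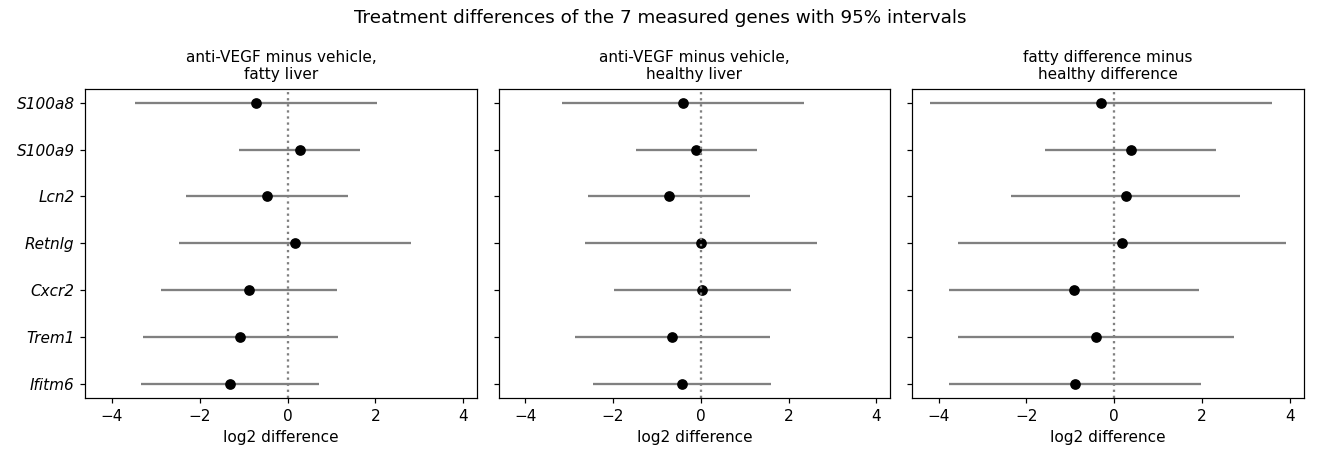
Log2 differences of the 7 measured genes with 95% intervals for anti-VEGF minus vehicle in fatty liver, the same in healthy liver, and the fatty liver difference minus the healthy liver difference. All intervals cross 0, and that of Ifitm6 in fatty liver runs from -3.35 to 0.71.

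Over all tested genes the SD of the difference ran from 0.402 to 0.616 between pairs of the 3 anti-VEGF arrays of fatty liver. Between pairs of its vehicle arrays, of which arrays 1 and 3 were nearly alike, it ran from 0.163 to 0.405. Each of the 10 genes also had a wider range over the anti-VEGF arrays, though Ngp, Ltf and Camp lay mostly under the limit. The share of all tested genes with a wider range was not counted, so the wider range cannot be called particular to the 10. The range over the anti-VEGF arrays was 6.60 for S100a8, 6.26 for Retnlg, 4.74 for Trem1, 4.66 for Ifitm6 and 4.56 for Cxcr2, against 1.73, 0.93, 1.57, 0.93 and 1.68 over the vehicle arrays. Array 1 lay above all 3 vehicle arrays in 6 of the 7 measured genes, with Trem1 the exception, where 15.8% of all tested genes did so. Its values exceeded the vehicle mean most in Retnlg, by 3.89, then in S100a8, by 2.72, S100a9, by 2.19, and Lcn2, by 2.01. In the surface genes the excess was 1.34 for Cxcr2, 0.89 for Trem1 and 0.67 for Ifitm6. Among the unmeasured genes Ngp on array 1 exceeded the vehicle mean by 2.76, Ltf by 1.29 and Camp by 0.74.

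Arrays 2 and 3 lay on the other side. Array 2 was below all 3 vehicle arrays in 6 of the 7 measured genes, again with Trem1 the exception, where 23.65% of all tested genes were below. The median distance of the 7 genes from the vehicle mean was -0.76 on array 2. Array 3 was below all 3 vehicle arrays in 7 of 7, where 29.29% of all tested genes were, at a median distance of -3.21. The distance from the vehicle mean on array 3 was -3.99 for Ifitm6, -3.89 for S100a8 and -3.85 for Trem1, and it was smallest for S100a9, at -1.06.

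**Figure D3:**
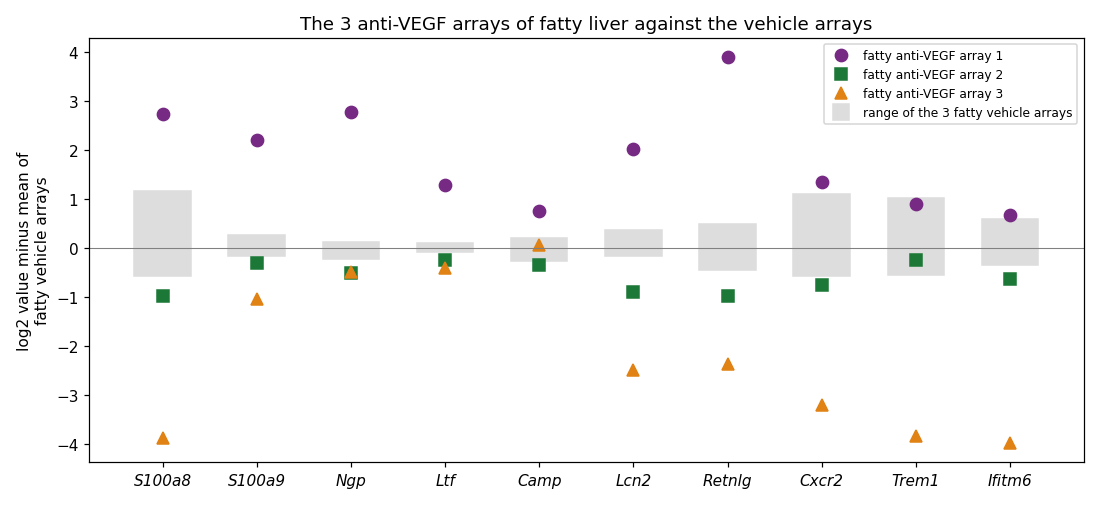
Distance of each fatty liver anti-VEGF array from the mean of the fatty liver vehicle arrays, in log2 units, for the 10 genes, with the range of the vehicle arrays in grey. Array 1 lies above the grey range in 9 of the 10 genes, and array 3 lies below it in 9 of the 10.

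Other cell type markers moved with array 3, and their part in the values above was not tested. Of the 35 further neutrophil genes measured, 34 were below all 3 vehicle arrays on it, as were 10 of 10 monocyte genes. Of the 10 macrophage genes, 4 were below all 3 vehicle arrays and another 3 were above them. The mean of the monocyte list was 8.33 on array 3, against 10.5 and 9.92 on the other anti-VEGF arrays of fatty liver and 9.91 to 10.61 on its vehicle arrays. The T and NK cell list mean was 5.15 on array 3, against 8.29 and 7.81 on the other anti-VEGF arrays and 8.20 to 8.88 on the vehicle arrays. The macrophage list mean was 10.9, 11.2 and 11.04 on anti-VEGF arrays 1 to 3, against 11.08 to 11.12 under vehicle. Thus array 3 had macrophage levels like those of the other fatty liver arrays and the lowest monocyte, T and NK cell levels of the 6. Against the highest healthy liver array, array 3 was higher in 2 of the 7 genes, S100a9 and Retnlg, in 17 of the 35 further neutrophil genes, in 4 of 10 monocyte genes and in 10 of 10 macrophage genes, beside 25.24% of all tested genes. The other 5 fatty liver arrays were higher than every healthy liver array in 6 or 7 of the 7 genes.

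Vehicle array 2 of healthy liver was also high in markers of other cells. Its endothelial list mean was 9.55, against 6.22 and 6.30 on vehicle arrays 1 and 3, and its monocyte list mean was 8.81, against 7.05 and 7.12. The mean of the 7 measured genes on that array was 5.62, against 4.95 and 5.02.

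**Figure D4:**
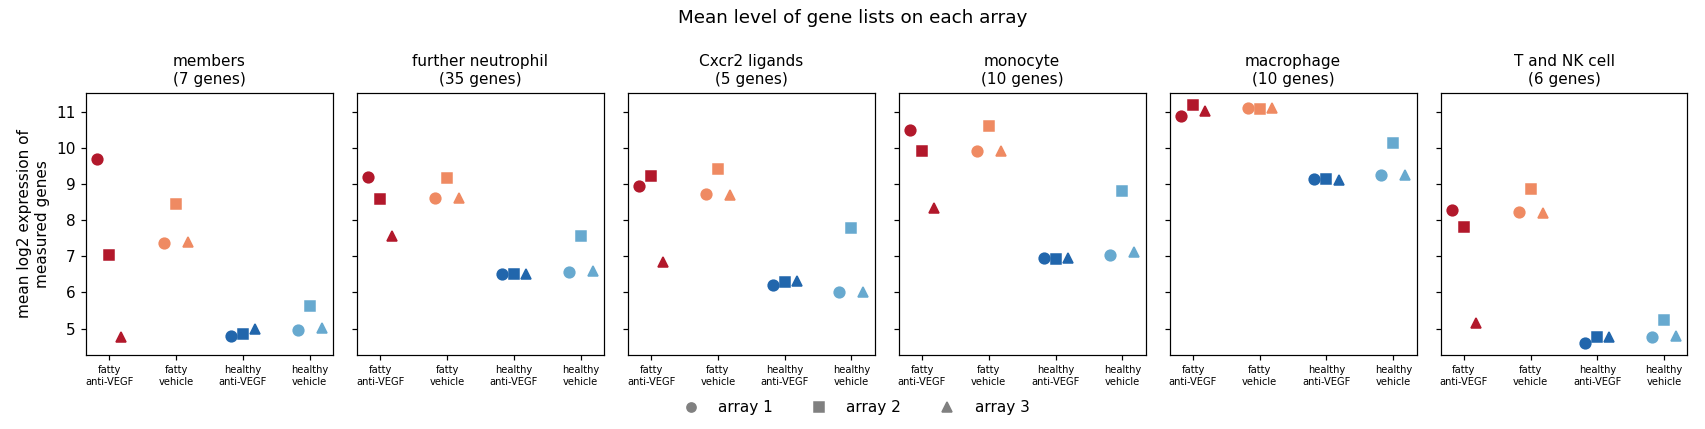
Mean log2 expression of the measured genes of 6 lists on each of the 12 arrays, with the groups on the horizontal axis and symbols for arrays 1 to 3. Anti-VEGF array 3 of fatty liver is the lowest fatty liver array in the 7 genes, at 4.76, and in the T and NK cell list, at 5.15, but not in the macrophage list, at 11.04.

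A longer list of 46 neutrophil genes outside the 10, of which 43 were on the array and 35 measured, was set beside them. None of the 35 changed with treatment in limma: 0 passed in fatty liver, in healthy liver or in the interaction, with 1, 5 and 0 at an unadjusted p under 0.05. Median differences were -0.33 in fatty liver, -0.42 in healthy liver and -0.01 for the interaction. Slfn4, a Schlafen gene of myeloid cells, had the smallest p of the list for treatment in healthy liver. Slfn4 was at 7.21, 7.42 and 7.36 under anti-VEGF, against 8.44, 9.22 and 8.42 under vehicle, and its log2 difference was -1.36 (SE 0.50, limma adjusted p = 0.50). The groups did not overlap in Slfn4, where 11.7% of all tested genes were lower without overlap, and the difference did not pass over all genes. Mmp8 differed by -1.14 in healthy liver (SE 0.51, limma adjusted p = 0.594), also without overlap, and by -0.42 in fatty liver. Vehicle array 2 was the highest healthy liver array in Mmp8. Selplg, the ligand of selectins on white blood cells, differed by -0.67 in healthy liver, the integrin subunits Itgam and Itgb2 by -0.64 and -0.49, and the oxidase subunits Cybb and Ncf1 by -0.67 and -0.42, with limma adjusted p-values from 0.503 to 0.615. These healthy liver differences rested on vehicle array 2, and without it they were -0.29 for Selplg, -0.27 for Itgam, -0.16 for Itgb2, -0.21 for Cybb and -0.19 for Ncf1, with -1.10 for Slfn4. In fatty liver the differences of Selplg, Itgam, Itgb2, Cybb and Ncf1 lay between -0.07 and -0.01 and that of Slfn4 was -0.63, and none of the 6 passed the interaction. Gfi1, a transcription factor of neutrophil maturation, differed by -0.29 in fatty liver (SE 0.13, limma adjusted p = 0.795).

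Between the livers, the longer list was higher in fatty liver. Under vehicle 26 of the 35 genes rose and 0 fell in limma, with a median log2 difference of 2.08, where 19.2% of all tested genes were called higher and 30.4% lower. Under anti-VEGF 22 rose and 0 fell, with a median of 2.10, where 18.2% were called higher and 27.6% lower. The anti-VEGF count was 30 without anti-VEGF array 3 of fatty liver, and 18 with 1 lower without array 1. Without vehicle array 2 of healthy liver 29 rose and 1 fell under vehicle, and without vehicle array 2 of fatty liver 19 rose. Monocyte, macrophage and T and NK cell genes were higher in fatty liver too, as given above. The list was chosen with earlier results of these data known and is not independent evidence of this direction. With the nearly alike arrays averaged into 1, the genes called higher were 11 under anti-VEGF and 9 under vehicle, and without vehicle arrays 1 and 3 of both livers the vehicle count was 8.

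Mmp8 and Csf3r were higher on every fatty liver array than on every healthy liver array, and their differences between the livers are described with no test. Mmp8 was at 11.20, 10.50 and 9.41 under anti-VEGF and at 10.61, 11.25 and 10.52 under vehicle in fatty liver. In healthy liver Mmp8 was at 6.17, 5.86 and 6.21 under anti-VEGF and at 6.62, 8.37 and 6.67 under vehicle. The log2 difference of fatty against healthy liver in Mmp8 was 4.29 under anti-VEGF and 3.57 under vehicle. Csf3r was at 10.96, 9.84 and 9.64 under anti-VEGF and at 9.94, 10.35 and 9.93 under vehicle in fatty liver. In healthy liver Csf3r lay between 6.53 and 6.85 under anti-VEGF and between 6.97 and 8.03 under vehicle. In Csf3r it was 3.47 under anti-VEGF and 2.74 under vehicle. Without anti-VEGF array 3 of fatty liver the anti-VEGF differences were 4.77 for Mmp8 and 3.73 for Csf3r. On anti-VEGF array 3 of fatty liver, Cxcr2, Trem1 and Ifitm6 were inside the healthy liver range, and Mmp8 and Csf3r were not. Other neutrophil markers did not follow Mmp8 and Csf3r. In limma Mmp9, at 0.92 under anti-VEGF and 0.66 under vehicle, and Cxcr1 did not pass between the livers under either treatment. Cd177 passed under vehicle, at 1.98, but not under anti-VEGF, at 1.10. Mmp9, Cxcr1 and Cd177 were not above the highest healthy liver array on anti-VEGF array 3 of fatty liver.

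Of the 5 ligands of Cxcr2 that were measured, 4 rose in fatty against healthy liver in limma under both treatments, where 18.2% of all tested genes rose under anti-VEGF and 19.2% under vehicle. With the nearly alike arrays averaged 0 of the 5 passed under either treatment. Under anti-VEGF 1 passed without array 1 of fatty liver and 4 without array 3. Under vehicle the log2 difference was 4.01 for Cxcl3 (SE 1.01, limma adjusted p = 0.00875), 3.13 for Ppbp (SE 0.68, limma adjusted p = 0.00441), 2.72 for Cxcl2 and 1.85 for Cxcl1. Under anti-VEGF it was 2.86 for Ppbp, 2.15 for Cxcl2 and 1.45 for Cxcl1, and Cxcl3, below the limit on all 3 healthy liver arrays, was at least 7.99-fold higher, or at least 4.09-fold without anti-VEGF array 1 of fatty liver and at least 21.3-fold without array 3. Cxcl5 did not pass, at 0.68 under anti-VEGF and 0.01 under vehicle. Treatment called 0 of the 5 ligands in either liver, and 0 of 5 had an unadjusted p under 0.05. On anti-VEGF array 3 of fatty liver Cxcl3 was at 5.10, against 9.86 and 8.83 on arrays 1 and 2 and 8.83 to 10.13 under vehicle, and 0 of the 5 ligands was above the highest healthy liver array on it.

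The partners of the other proteins were mixed. Tyrobp, the adaptor of Trem1, rose by 2.50 under anti-VEGF and by 2.08 under vehicle in fatty against healthy liver (SE 0.31 each, limma adjusted p = 0.000189 and 0.000679). Tlr4, a receptor proposed for S100a8 and S100a9, rose by 1.87 under anti-VEGF and by 1.44 under vehicle. With the nearly alike arrays averaged Tlr4 passed under both treatments and Tyrobp under anti-VEGF alone, at a limma adjusted p of 0.0485, against 0.0561 under vehicle. Ager, another receptor proposed for them, fell by 0.18 under anti-VEGF (limma adjusted p = 0.0494) and did not pass under vehicle, at 0.02. It did not pass under anti-VEGF without array 1 of fatty liver, without vehicle array 2 of healthy liver or with the nearly alike arrays averaged. Slc22a17, proposed as a receptor for Lcn2, did not pass, at -0.22 under anti-VEGF and 0.02 under vehicle. Csf3, the growth factor that drives neutrophil production, was above the limit on 1 array and was not tested. That array was anti-VEGF array 1 of fatty liver, where Csf3 was at 6.37, against 4.65 and 4.59 on arrays 2 and 3, 4.75 to 4.92 under vehicle and 4.64 to 4.74 in healthy liver. Ngp, Ltf and Ly6g had their highest values on the same array.

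Of the other Ifitm genes 5 of 6 were on the array and 4 were measured. Under anti-VEGF Ifitm1, Ifitm2 and Ifitm3 rose in fatty against healthy liver in limma. Ifitm1, below the limit on all 3 healthy liver arrays, was at least 4.0-fold higher, or at least 2.40-fold without anti-VEGF array 1 of fatty liver and at least 7.07-fold without array 3, and Ifitm2 and Ifitm3 rose by 1.27 and 0.43. Under vehicle Ifitm1, Ifitm2 and Ifitm5 rose, by 2.54, 1.00 and 0.73. Ifitm5 under anti-VEGF, at 0.50, and Ifitm3 under vehicle, at 0.32, did not pass. Without array 1 of fatty liver Ifitm3 did not pass under anti-VEGF, and with the nearly alike arrays averaged none of the 4 passed. Ifitm5 did not pass under vehicle without vehicle array 2 of healthy liver. On anti-VEGF array 3 of fatty liver Ifitm1 was at 5.29, against 8.41 and 7.10 on arrays 1 and 2, a spread like that of Ifitm6, while Ifitm2 was at 7.92, against 8.40 and 8.02. Of the resistin family, Retn was measured and Retnla and Retnlb, with 1 and 0 arrays above the limit, were not. Retn was below the limit on all healthy liver arrays and above it on 2 of 3 anti-VEGF and 1 of 3 vehicle arrays of fatty liver. Under anti-VEGF it was at least 1.02-fold higher (limma adjusted p = 0.0481), with no bound left without array 1 of fatty liver, and it did not pass under vehicle.

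The 10 genes did not all follow one another within fatty liver. Over the 6 fatty liver arrays, Pearson's r was 0.987 between Trem1 and Ifitm6, 0.975 between Cxcr2 and Trem1 and 0.959 between Cxcr2 and Ifitm6. It was 0.995 between S100a9 and Retnlg, 0.989 between S100a9 and Ltf and 0.985 between Ngp and Ltf. Between S100a9, Retnlg, Ngp, Ltf and Camp on one side and Cxcr2, Trem1 and Ifitm6 on the other, r ran from 0.287 for Camp and Ifitm6 to 0.850 for Retnlg and Cxcr2, with 0.820 for S100a9 and Cxcr2. S100a8 was high with genes of both sides, at 0.982 with Cxcr2, 0.932 with Trem1, 0.922 with Ifitm6, 0.932 with Retnlg and 0.912 with S100a9, and lower with Ltf, at 0.850, and Ngp, at 0.782. Lcn2 was at 0.983 with S100a8. These values describe 6 arrays of which vehicle arrays 1 and 3 are nearly alike, they turn mainly on anti-VEGF arrays 1 and 3, and all genes share the arrays and their normalization. Camp was below the limit on all arrays, and Ngp and Ltf were above it on anti-VEGF array 1 alone. Their correlations therefore rest mostly on values under the limit.

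The genes most like Ifitm6 over the 12 arrays came from outside the neutrophil lists. Among genes outside the 10 and without predicted symbols, the highest Pearson's r with Ifitm6 were 0.996 for Ly6a2, 0.995 for Gzmf, 0.994 for Cd24a, 0.994 for Nkg7 and 0.993 for Il2rb. Gzmf is a granzyme, Nkg7 a protein of cytotoxic granules, Il2rb a chain of the interleukin 2 receptor and Cd24a a surface antigen of several blood cell types. The genes most like the mean of the 7 measured genes were Slpi, at 0.992, Il1f9, at 0.990, Vcan, at 0.990, Hp, at 0.987, and Mcemp1, at 0.985. Slpi is a protease inhibitor of myeloid and epithelial cells, Il1f9 an interleukin 1 family cytokine, and Vcan a matrix proteoglycan of monocytes among other cells. Hp, haptoglobin, is stored in neutrophil granules as well as made by the liver. These correlations span the difference between the livers, on which Ifitm6 was chosen.

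By the RefSeq gene table of build GRCm38.p6, in which all 10 genes were found, S100a8 and S100a9 are neighbours on chromosome 3 with 0 protein-coding genes between them. Ifitm6 and Ifitm3 are neighbours on chromosome 7, as are Retnlg and Retnla on chromosome 16. Camp, Ngp and Ltf lie on chromosome 9, with 8 genes between Camp and Ngp and 20 between Ngp and Ltf. Retnlg and its neighbour Retnla differed on anti-VEGF array 1 of fatty liver, where Retnlg had its highest value of the 12 arrays, at 9.71, and Retnla, at 3.67, was below the limit.

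Promoter sequences are shown for some of the genes whose values were correlated over the fatty liver arrays: S100a9, Ngp and Ltf, then Cxcr2, Trem1 and Ifitm6, and S100a8, which was correlated with genes of both sets. Each is the 150 bases before the RefSeq start on build GRCm38.p6, given 5′ to 3′ on the gene's own strand. Capitals mark matches, on either strand, to TTNNGNAA, a core of the site bound by C/EBP proteins, or GAGGAA, a core bound by PU.1, factors that direct the myeloid lineage. Retnlg, whose r with S100a9 was 0.995, Lcn2 and Camp are not shown. The same stretches of Retnlg and Camp held no match to either, and that of Lcn2 held a match to GAGGAA.
S100a8 (chr3:90668921-90669070, plus strand): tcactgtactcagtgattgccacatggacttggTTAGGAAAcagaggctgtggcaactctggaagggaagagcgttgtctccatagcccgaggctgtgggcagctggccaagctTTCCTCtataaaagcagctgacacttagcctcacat
S100a9 (chr3:90695722-90695871, minus strand): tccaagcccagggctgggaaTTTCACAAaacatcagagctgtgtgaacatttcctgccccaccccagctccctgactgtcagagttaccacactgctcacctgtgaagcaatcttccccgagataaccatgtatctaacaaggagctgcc
Ngp (chr9:110419658-110419807, plus strand): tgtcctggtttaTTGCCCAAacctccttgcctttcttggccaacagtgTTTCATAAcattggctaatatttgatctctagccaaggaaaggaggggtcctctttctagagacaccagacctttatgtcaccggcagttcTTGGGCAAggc
Ltf (chr9:111019142-111019291, plus strand): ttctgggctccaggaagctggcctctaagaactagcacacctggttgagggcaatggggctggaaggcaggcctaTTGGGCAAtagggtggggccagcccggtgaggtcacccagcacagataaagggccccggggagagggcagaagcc
Cxcr2 (chr1:74153844-74153993, plus strand): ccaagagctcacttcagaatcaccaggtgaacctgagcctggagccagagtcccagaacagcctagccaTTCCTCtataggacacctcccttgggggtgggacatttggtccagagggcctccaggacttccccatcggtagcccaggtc
Trem1 (chr17:48232589-48232738, plus strand): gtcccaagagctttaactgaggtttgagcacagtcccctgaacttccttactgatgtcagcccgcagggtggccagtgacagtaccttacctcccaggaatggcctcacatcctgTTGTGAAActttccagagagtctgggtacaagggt
Ifitm6 (chr7:141016893-141017042, minus strand): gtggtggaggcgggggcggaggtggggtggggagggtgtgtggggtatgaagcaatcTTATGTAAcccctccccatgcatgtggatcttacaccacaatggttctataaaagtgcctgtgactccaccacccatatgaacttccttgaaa

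The motifs were counted over the whole RefSeq window of 300 bases, 250 before and 50 after the start, which was found for all 10 genes. TTNNGNAA was present in 8 of the 10 windows, all but those of Cxcr2 and Camp, and in 40.7% of all 32851 promoter windows. GAGGAA was present in 5, those of S100a8, Ltf, Lcn2, Cxcr2 and Trem1, and in 28.3% of all. Ngp, which was above the limit on 1 array, had 3 matches to TTNNGNAA in the stretch shown. TATAAA, the letters of a TATA box, was present in the windows of S100a8, S100a9 and Ifitm6 and in 13.6% of all. The match began 30 bases before the start in S100a8, 46 before it in Ifitm6 and at the start itself in S100a9. A core of the NF-kB site was present in 4 windows and in 50.8% of all, and a core of the interferon response element in 0 and in 3.44% of all. The motifs were picked with the genes already known, short motifs occur often by their length alone, and a match is a run of letters and no measured binding.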

How the data were processed

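RNA of 12 mouse tumour samples had been amplified and labelled with biotin for 1-colour whole-transcript arrays, per the labels' protocols. The values are log2 expression values that the authors deposited, 1 column per array. Affymetrix Expression Console is the tool listed, per the submitters' processing notes. The sources used here do not give its version, algorithm, normalization or genome build. That the scale is log2 follows from the range of the values, centring is not stated, and column medians lay between 4.88 and 4.99. No further normalization was applied.

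Of 41345 rows, 23521 have 1 symbol in the platform annotation, 1814 several and 16010 none. A gene was represented by its row of highest mean, for 22180 genes. Genes above the table median of 4.93 on at least 3 arrays were tested (13286). One model with a mean per group was fitted over all 12 arrays with limma 3.58.1 in R 4.3.3 (lmFit and eBayes, 8 residual and 2.40 prior degrees of freedom). P-values were adjusted over all tested genes by Benjamini-Hochberg, with a threshold of 0.05, and the fit was tested on simulated data. A fold marked "at least" counts from 4.93, where every array of the lower group is at or below it. Correlations are Pearson's and carry no p.

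The genes, lists, tests and motifs were chosen with earlier results of these data known. Named further are, of the longer neutrophil list, the 8 genes with the smallest p for treatment or interaction, Mmp8 among them, plus Csf3r and Ly6g, which with Mmp8 were always named, and the ligands, partners and family members of the 10 genes. Elane, Mpo, Fcnb, Prtn3, Ctsg and Cebpe are named as precursor markers. Mmp9, Cxcr1 and Cd177 are named as neutrophil markers, and Hp and Mcemp1 among the 5 genes of highest correlation. Hdc, Cpa3 and Mcpt4 were chosen after their values were seen. Replicate numbers are shared between groups. Arrays of the same number deviated together from their group means, with a correlation over 0.1 in each of 3 pairs, in the comparison of the vehicle groups alone, at 0.536, 0.701 and 0.549, a pairing that comes from the data alone. They did not in fatty liver (-0.486, 0.106 and 0.472) or healthy liver (-0.005, -0.039 and 0.008) between anti-VEGF and vehicle. Alternatives were other filters, rows, scalings, weights, variance models, a replicate block, only the groups compared, nearly alike arrays (SD under 0.2) averaged, and arrays left out.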

Additional observations from a re-analysis of the deposited data

How the results depend on the processing

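None of the 7 measured genes passed for treatment in either liver or for the interaction under any alternative, and the smallest adjusted p in limma was 0.0834, for Lcn2 in healthy liver with only the groups compared. Of 485 alternative values of the 21 differences, 445 kept their sign and 40 did not. With 1 array left out, differences between anti-VEGF and vehicle in fatty liver ranged from -2.43 to 0.87 for S100a8, -0.69 to 0.94 for S100a9, -1.70 to 0.55 for Lcn2, -1.68 to 1.45 for Retnlg, -1.98 to 0.29 for Cxcr2, -2.05 to 0.32 for Trem1 and -2.32 to 0.013 for Ifitm6. In healthy liver they ranged from -0.051 to 0.058 for Retnlg and -0.13 to 0.32 for Cxcr2. For the interaction they ranged from -2.02 to 1.28 for S100a8, -0.58 to 1.04 for S100a9, -0.97 to 1.28 for Lcn2, -1.68 to 1.45 for Retnlg, -2.02 to 0.26 for Cxcr2, -1.40 to 0.97 for Trem1 and -1.89 to 0.44 for Ifitm6. With array weights, fatty liver differences were -0.13 for S100a9, -0.68 for Retnlg and 0.14 for Trem1, and interactions were -0.016 for S100a9, -0.049 for Lcn2, -0.72 for Retnlg and 0.28 for Trem1. Leaving out anti-VEGF arrays 1 and 3 of fatty liver, an alternative chosen after seeing the data, gave -0.32 for S100a9 and -0.98 for Retnlg in fatty liver and interactions of -0.21 for S100a9, -0.18 for Lcn2, -0.99 for Retnlg and 0.39 for Trem1. In healthy liver Retnlg was -0.0096 with arrays centred and -0.014 with nearly alike arrays averaged, and Cxcr2 was -0.11 with them averaged and -0.54 without vehicle arrays 1 and 3 of both livers. The median difference between livers under vehicle was 3.64 without those arrays and ranged from 2.49 to 3.20 with 1 array left out, and under anti-VEGF from 1.06 to 4.18. The causes were not tested.

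Counts over all genes moved. Treatment in fatty liver, in healthy liver and the interaction called 1848, 1661 and 1477 genes with array weights, against 1, 0 and 0. Treatment in healthy liver called 48 with only the groups compared, 76 without anti-VEGF arrays 1 and 3 of fatty liver and 756 without vehicle arrays 1 and 3 of both livers, where the interaction called 19. Of the 35 longer-list genes, array weights called 3 lower in fatty liver and 4 lower and 1 higher in healthy liver, and 5 were lower in healthy liver without vehicle arrays 1 and 3 of both livers. Averaging nearly alike arrays left 510 genes called between livers under anti-VEGF and 721 under vehicle, against 6084 and 6595. With the replicate block 0 of the 7 genes passed in any of the 3 tests, 0 genes of all passed for treatment or interaction, 23 longer-list genes were higher in fatty liver under anti-VEGF and 26 under vehicle, and it changed no other call given here. With no detection calls, signal over background is unknown, and values under the limit understate differences.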

Other observations

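Genes of mast cells were also low on anti-VEGF array 3 of fatty liver. Cpa3, mast cell carboxypeptidase, was at 9.48 on it, against 11.67 and 12.16 on anti-VEGF arrays 1 and 2, 12.01 to 12.37 on the vehicle arrays of fatty liver and 11.72 to 12.83 in healthy liver. Mcpt4, a mast cell protease, was at 7.45, against 10.27 and 10.77, 10.63 to 11.00 and 10.05 to 11.75 on the same sets of arrays. Hdc, histidine decarboxylase, which is expressed by mast cells and by myeloid cells including neutrophils, was at 6.38, against 10.08 and 9.56 on arrays 1 and 2 and 9.41 to 10.17 under vehicle. In Cpa3, Mcpt4 and Hdc that array was the lowest of the 12, below healthy liver too. The same held for S100a8, at 3.15, and Lcn2, at 5.32, while Cxcr2, Trem1 and Ifitm6 were inside the healthy liver range on it. S100a8 was below the limit on that array and on all healthy liver arrays, so its order there rested on values under the limit.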
